A study of Mus musculus with 12 samples.

Results

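Fibronectin and 9 matricellular proteins were followed through their transcripts in the skin of C3H/HeJ mice, a laboratory inbred strain. The genes were picked by symbol, with no threshold on a measured value: Fn1, Tnc, Postn, Sparc, Thbs1, Thbs2, Thbs4, Spp1, Cthrc1 and Comp. All 10 were found among the 23359 genes of the deposited table, and all 10 passed the filter on low values that left 13761 genes for testing. The study placed 3 libraries in each of 4 groups, 12 in all. Normal skin has no stated time point. Fibrotic skin was sampled at 6 weeks and at 20 weeks, and treated skin was 20-week fibrotic skin into which CD36highCD90+ fibroblasts had been transplanted, cells carrying much of the fatty acid receptor CD36 and the surface protein CD90. How fibrosis was produced, the age of the mice, and the time and manner of the transplantation are not known here. Nothing in the labels ties a library to its own mouse, so the p-values measure only the spread between these samples.

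Fibronectin is a large secreted glycoprotein that cells pull into fibrils through integrins, and its fibrils serve as a template on which collagen is laid down. Matricellular proteins are secreted into the matrix as well, but they act mainly by binding receptors, growth factors and proteases rather than by bearing load. Many of them are scarce in resting adult skin and abundant in healing wounds and scars, where fibroblasts, macrophages and epidermal cells can all make them. Expression is given as FPKM, fragments scaled to transcript length and to the size of the library, which allows levels to be compared between genes. Differences are log2 fold changes of FPKM + 1, which understate the change of genes below a few FPKM, and a gene is called when limma's adjusted p, taken over all 13761 genes of a comparison, is under 0.05.

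The stretch before the transcription start is shown for 3 members, Tnc and Spp1, whose means were highest in 6-week fibrotic skin, and Postn, whose mean was highest in normal skin, so that the letters can be set beside the values. RefSeq gave 9 starts on GRCm38.p6 for 6 of the 10 members, including a pair each for Tnc, Spp1 and Postn, of which 1 is shown. The 250 bases before the start are given 5′ to 3′ on the strand of the gene, with motif letters in capitals. The window of Tnc lies at chr4:64047016-64047265 (minus strand), that of Spp1 at chr5:104434861-104435110 (plus strand) and that of Postn at chr3:54360857-54361106 (plus strand).
Tnc: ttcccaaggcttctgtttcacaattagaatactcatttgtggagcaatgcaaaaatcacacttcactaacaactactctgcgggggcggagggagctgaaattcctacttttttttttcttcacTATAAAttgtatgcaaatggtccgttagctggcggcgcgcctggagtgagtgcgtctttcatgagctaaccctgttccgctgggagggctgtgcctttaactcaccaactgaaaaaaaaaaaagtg
Spp1: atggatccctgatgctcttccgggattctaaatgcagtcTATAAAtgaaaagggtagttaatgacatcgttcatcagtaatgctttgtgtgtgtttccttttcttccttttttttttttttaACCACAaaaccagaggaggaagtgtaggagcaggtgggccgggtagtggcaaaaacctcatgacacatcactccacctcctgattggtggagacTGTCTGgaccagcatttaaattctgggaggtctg
Postn: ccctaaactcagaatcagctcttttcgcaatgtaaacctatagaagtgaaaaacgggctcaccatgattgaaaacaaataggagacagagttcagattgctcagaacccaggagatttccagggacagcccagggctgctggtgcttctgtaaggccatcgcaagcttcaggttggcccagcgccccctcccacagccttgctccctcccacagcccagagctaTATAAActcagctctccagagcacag
Each window was searched on both strands for TATAAA (letters of the TATA box), TGANTCA (the AP-1 site), CAGACA (a SMAD element) and ACCACA (a RUNX site). Only these exact letters were sought, at any distance from the start, so a TATAAA match need not be the TATA box of that start. No marked motif overlaps another. Among 32817 mouse promoters of the same length, 12.4% hold TATAAA, 6.75% TGANTCA, 17.1% CAGACA and 14.0% ACCACA. The window of Postn holds TATAAA from 26 to 21 bases before the start, and that of Tnc holds it farther upstream, from 126 to 121 bases. In Spp1 the marked letters are TATAAA from 211 to 206 bases before the start, ACCACA from 128 to 123 bases, and CAGACA on the opposite strand, printed as its reverse complement, from 34 to 29 bases. None of these 3 windows holds TGANTCA. At the other start of each gene, the window of Tnc holds TATAAA from 205 to 200 and CAGACA on the opposite strand from 71 to 66 bases before the start, and those of Spp1 and Postn hold none of the motifs. In GENCODE both Spp1 starts belong to transcripts marked principal, the shown start within 7 bases and the other exactly. The matches describe the letters and no binding was measured here.

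Across the whole table the fibrotic and normal groups differed widely, and the summed markers of several tissues differed between libraries. Skeletal muscle transcripts summed to between 144 and 10551 FPKM. The lowest sums were 259 FPKM in normal replicate 2, 144 FPKM in 6-week replicate 2 and 182 FPKM in treated replicate 1, and 20-week fibrotic skin ran from 1228 to 5220 FPKM. Keratinocyte markers summed to 5862 to 6870 FPKM in normal, 20769 to 36747 in 6-week, 15737 to 26129 in 20-week and 6782 to 19791 in treated skin. These markers did not move alike, and of 15 measured 13 were called higher and 1 lower at 6 weeks. In normal skin Krt6b ran from 1.02 to 3.11, Krt5 from 2279 to 2335 and Flg2 from 186 to 246 FPKM. At 6 weeks they ran from 1808 to 4376, 3162 to 3448 and 61.1 to 78.5 FPKM. Macrophage markers summed to 138 to 269 FPKM in normal, 413 to 1043 in 6-week, 439 to 499 in 20-week and 287 to 352 in treated skin. Of 18 listed macrophage genes 17 were measured, and none was at 0 in every library. Hair shaft markers summed to 81.9 to 693, 1570 to 2094, 199.96 to 413 and 525 to 7638 FPKM. Dermal fibroblast markers, 13 of 13 measured, summed to 516 to 820, 442 to 1007, 213 to 562 and 427 to 673 FPKM, so that defining fibroblast transcripts were present in every library. In bulk skin, fewer cells of a type and less RNA per cell cannot be told apart, and the part of tissue mixture in the results was not tested. When keratinocyte, hair and muscle markers were removed and the rest rescaled, the median of all genes against normal skin moved from -0.05 to -0.34 in the 6-week and from -0.04 to -0.31 in the 20-week group. For treated against 20-week fibrotic skin it moved from -0.0044 to 0.24. The called genes then split into 1305 higher and 5727 lower at 6 weeks, 1100 and 5276 at 20 weeks, and 2449 and 708 in treated against fibrotic skin, against 2427 and 2982, 2102 and 2503, and 612 and 1496 as deposited. Scaling by median of ratios changed the split of treated against normal skin from 1042 higher and 1813 lower to 1263 and 1353.

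Fibrotic skin at 6 weeks carried more Tnc, Cthrc1, Spp1, Sparc and Thbs1 transcript than normal skin, and none of the 10 genes was called lower. These 5 of 10 members stood beside 17.6% of all tested genes called higher and 21.7% called lower. At 20 weeks 3 of 10, Cthrc1, Tnc and Thbs1, were called higher and 0 lower, against 15.3% and 18.2% of all genes. Between 6 and 20 weeks limma called 0 of 10 members and 0 had an unadjusted p under 0.05, where 0.00727% of all genes were called higher and 0.0291% lower. An unadjusted p under 0.05 was held there by 2737 of the 13761 tested genes. In treated against 20-week fibrotic skin only Cthrc1 of the 10 was called, and it was lower, beside 4.45% of all genes called higher and 10.9% lower. Treated skin still held more Thbs1 and Tnc than normal skin, 2 of 10 higher and 0 lower, against 7.57% and 13.2% of all genes. At an unadjusted p under 0.05 the members counted 5 at 6 weeks, 5 at 20 weeks and 4 in treated skin against normal, and 1 in treated against fibrotic skin. Of all 13761 tested genes, 6817, 6292 and 5113 had such a p against normal skin in the same order. In treated against fibrotic skin 4775 did. Against normal skin the median log2 fold change over the 10 members was 0.75 in the 6-week, 0.82 in the 20-week and 0.84 in the treated group. Over all tested genes the same medians were -0.05, -0.04 and -0.06. Comparisons against normal skin share the 3 normal libraries, and those that use the 20-week fibrotic group share its 3 libraries, so they are not independent of each other.

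**Figure D1:**
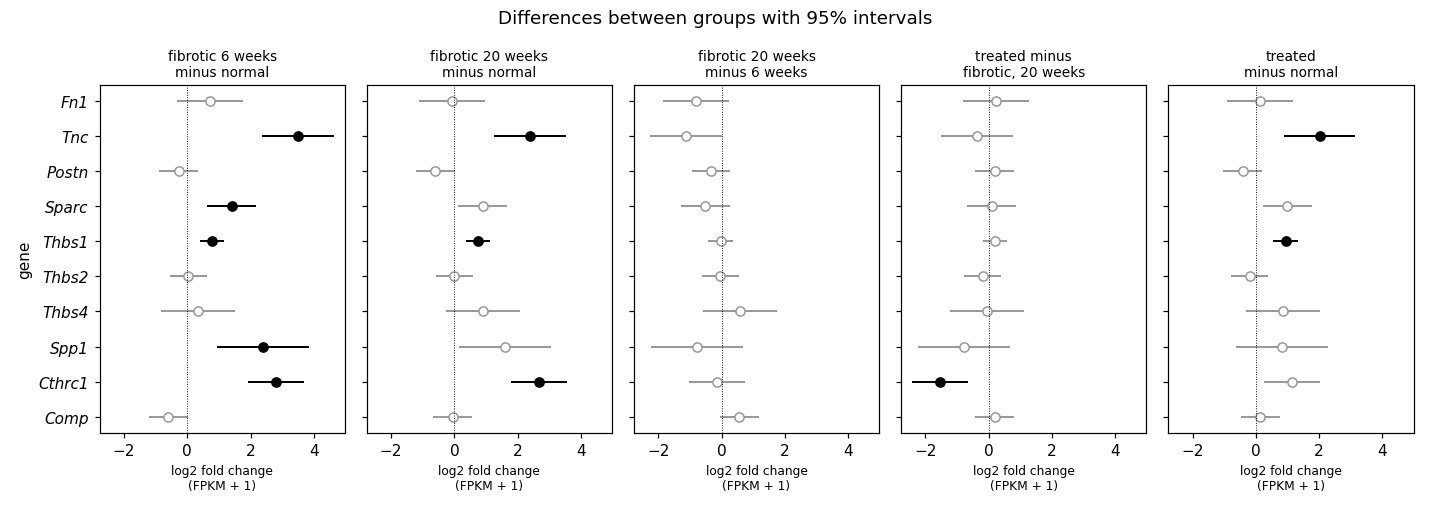
Log2 fold changes of FPKM + 1 for the 10 genes in the 5 comparisons, with 95% intervals from limma as lines and called genes as filled dots. Against normal skin, filled dots right of 0 number 5 at 6 weeks and 3 at 20 weeks, and the filled dot of Cthrc1 in treated against fibrotic skin lies left of 0 at -1.53.

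In normal skin the order of group means, with SD over 3 libraries, was Postn at 301 ± 20.3 FPKM, Sparc at 158 ± 33.4, Fn1 at 28.4 ± 10.7, Thbs2 at 25.9 ± 4.66 and Thbs1 at 22.4 ± 4.57. Below them came Tnc at 4.56 ± 2.89 FPKM, Spp1 at 2.89 ± 0.0893, Comp at 1.15 ± 0.492, Thbs4 at 0.826 ± 0.267 and Cthrc1 at 0.390 ± 0.0873. Neighbours whose libraries overlapped were Fn1, Thbs2 and Thbs1, then Tnc and Spp1, then Comp and Thbs4. At 6 weeks Sparc came first, at 423 ± 106 FPKM, before Postn at 257 ± 80.3, with overlap, and Tnc followed, at 63.8 ± 32.1 FPKM, overlapping Fn1 at 49.99 ± 24.4. Comp was then the lowest, at 0.391 ± 0.0460 FPKM, below Thbs4 at 1.37 ± 0.832 and Cthrc1 at 8.96 ± 2.96.

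Fn1 (chr1:71585520-71653200 on GRCm38, minus strand), the fibronectin gene, was not called in any comparison. It stood at 19.7, 40.3 and 25.2 FPKM in normal skin and at 73.8, 51.0 and 25.1 FPKM in 6-week fibrotic skin. At 20 weeks it was at 33.96, 39.6 and 12.2 FPKM in fibrotic and at 27.7, 26.6 and 36.5 FPKM in treated skin. The first 2 libraries at 6 weeks lay above every other library, but the third lay among the normal ones, so the groups overlapped. The log2 fold change at 6 weeks against normal skin was 0.73 ± 0.47 (SE, n = 3 libraries a group; limma adjusted p = 0.240), with a 95% interval from -0.32 to 1.78. The 95% interval of the difference at 20 weeks ran from -1.13 to 0.96. An exon of Apol7d overlaps Fn1 on the opposite strand, and the sources used here do not say whether the authors counted by strand.

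Tnc (chr4:63959785-64047015, minus strand) encodes tenascin-C, a star-shaped glycoprotein that weakens the grip of cells on fibronectin and is a marker of wound and tumour matrix. Its level was 3.36, 7.86 and 2.46 FPKM in normal skin and 86.0, 78.4 and 26.95 FPKM at 6 weeks. In 20-week fibrotic skin it was 31.7, 26.6 and 19.9 FPKM, and in treated skin 35.9, 15.4 and 13.6 FPKM. Every fibrotic and treated library lay above every normal library. Mean FPKM was 14.0-fold higher at 6 weeks than in normal skin, with a log2 fold change of 3.50 ± 0.51 (SE, n = 3 a group; limma adjusted p = 0.000953). At 20 weeks the mean was 5.72-fold higher, a log2 fold change of 2.38 ± 0.51 (adjusted p = 0.00699). The later level was lower than the earlier by 1.12 on the log2 scale, but the groups overlapped, the adjusted p was 0.255 and the 95% interval ran from -2.25 to 0.01. Treated skin exceeded normal skin by 2.02 ± 0.51 (adjusted p = 0.0228), a call that was lost in a fit of those 6 libraries alone (0.0844) and without normal replicate 1 (0.0602) or 3 (0.0922). Treated and fibrotic skin at 20 weeks differed by -0.36, with an interval from -1.50 to 0.77. An exon of 8030451A03Rik overlaps Tnc on the opposite strand.

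Cthrc1 (chr15:39076932-39087121, plus strand) encodes collagen triple helix repeat containing 1, a secreted protein first described in injured arteries and used as a marker of scar-forming fibroblasts. Transcript was low in normal skin, at 0.298, 0.472 and 0.399 FPKM, and stood at 12.4, 7.25 and 7.24 FPKM at 6 weeks. At 20 weeks it was at 12.1, 9.55 and 3.94 FPKM in fibrotic skin and at 1.80, 4.06 and 0.985 FPKM in treated skin. All 6 fibrotic libraries and all 3 treated libraries lay above the normal ones, and 2 of the 3 treated libraries lay below every fibrotic library. The mean was 23.0-fold higher at 6 weeks and 21.9-fold higher at 20 weeks than in normal skin. The log2 fold changes were 2.80 ± 0.40 and 2.66 ± 0.40 (SE, n = 3 a group; limma adjusted p = 0.000847 and 0.00155). Since normal skin was under 1 FPKM throughout, Cthrc1 passed the filter only through the other groups, and the added constant shrinks its change: with a constant of 0.1 the same values were 4.18 and 4.01.

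Cthrc1 was the member that fell in treated against 20-week fibrotic skin, by 1.53 ± 0.40 on the log2 scale (limma adjusted p = 0.0321), from a mean of 8.52 to a mean of 2.28 FPKM. The highest treated library, at 4.06 FPKM, overlapped the lowest fibrotic library, at 3.94 FPKM. The call was lost with no filter (adjusted p = 0.0514), in a fit of those 6 libraries alone (0.142), without fibrotic replicate 1 (0.109), 2 (0.0864) or 3 (0.0702), and without treated replicate 3 (0.119). The direction was the same in all 14 alternatives run. Treated skin stood above normal skin by 1.13 ± 0.40 (adjusted p = 0.0668), without overlap, and by 2.08 (0.0209) with a constant of 0.1. Keratinocyte markers summed lower in 2 of the 3 treated libraries than in any 20-week fibrotic library, and 5 of the 15 measured were called lower and 0 higher. With keratinocyte, hair and muscle markers removed and the rest rescaled, Cthrc1 differed by -1.31 (adjusted p = 0.0444).

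**Figure D2:**
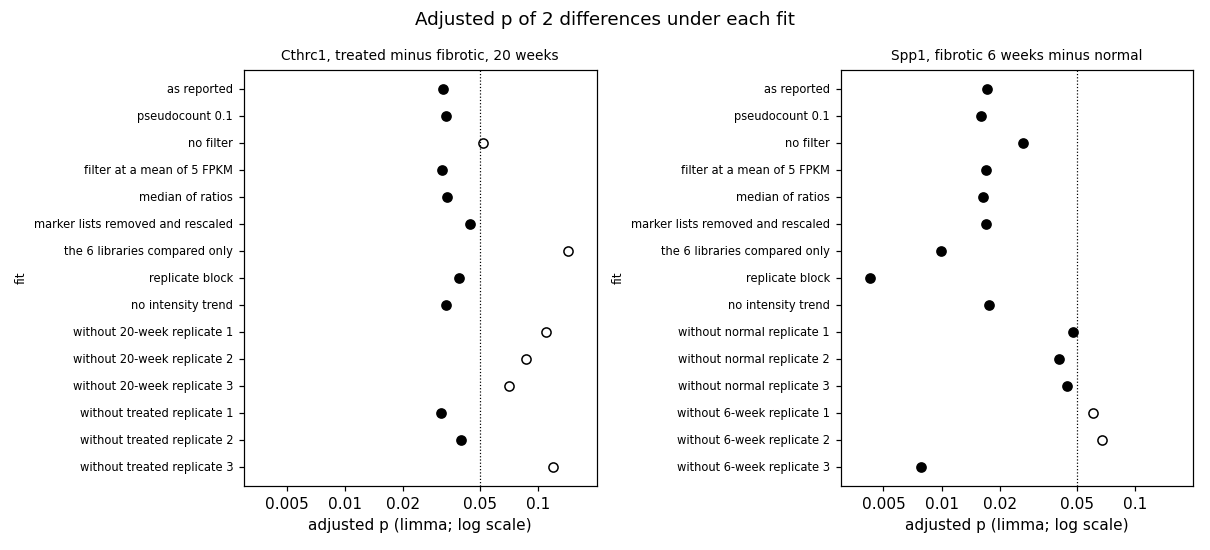
Adjusted p (limma, log axis) of 2 differences under each fit run: Cthrc1 in treated minus fibrotic skin at 20 weeks and Spp1 in 6-week fibrotic minus normal skin. Filled dots lie below the dotted threshold of 0.05; open dots mark the fits in which the call was lost, 6 for Cthrc1 and 2 for Spp1.

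Spp1 (chr5:104435118-104441050, plus strand) encodes osteopontin, an integrin and CD44 ligand made by macrophages, among other cells. Normal skin was tightly grouped at 2.90, 2.98 and 2.80 FPKM, and 6-week fibrotic skin stood at 28.8, 31.2 and 7.74 FPKM. Fibrotic skin at 20 weeks stood at 23.98, 9.41 and 5.36 FPKM, and treated skin at 14.0, 5.37 and 2.42 FPKM. Both fibrotic groups lay wholly above normal skin, whereas the lowest treated library lay below all normal libraries. The mean was 7.81-fold higher at 6 weeks, with a log2 fold change of 2.38 ± 0.66 (SE, n = 3 a group; limma adjusted p = 0.0171). That call was lost without 6-week replicate 1 (adjusted p = 0.0605) or 2 (0.0672). At 20 weeks the mean was 4.47-fold higher and the log2 fold change 1.60 ± 0.66 (adjusted p = 0.0826). It was called in a fit of those 6 libraries alone (0.0341). Macrophage markers summed highest in the first 2 libraries at 6 weeks, 1043 and 716 FPKM, which were also the highest in Spp1. Keratinocyte markers summed highest in the same 2 libraries, at 26363.5 and 36747 FPKM. The part of either cell type in the Spp1 values was not tested. Of 17 measured macrophage markers 14 were called higher and 0 lower at 6 weeks (12 and 1 after rescaling), and 8 higher and 1 lower at 20 weeks. An exon of the predicted gene Gm42793 overlaps Spp1 on the same strand.

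Postn and Sparc were the most abundant of the 10, and together made up 70.8% to 86.5% of their summed FPKM in each library. Sparc (chr11:55394500-55423183, minus strand) encodes osteonectin, a collagen-binding protein that aids fibril assembly. It stood at 163, 189 and 123 FPKM in normal skin and at 541, 390.4 and 337 FPKM at 6 weeks. Fibrotic skin at 20 weeks held 274, 375 and 241 FPKM, and treated skin 172, 438 and 401 FPKM. Both fibrotic groups lay wholly above normal skin, while the first treated library lay among the normal ones. Sparc was 2.67-fold higher in mean FPKM at 6 weeks, with a log2 fold change of 1.40 ± 0.35 (SE, n = 3 a group; limma adjusted p = 0.0108). The log2 fold changes at 20 weeks, 0.90 ± 0.35 (adjusted p = 0.0696), and in treated against normal skin, 0.99 ± 0.35 (0.0654), were not called. A fit of the 6 libraries alone called the 20-week difference (adjusted p = 0.0205), and without treated replicate 1 that of treated skin was 1.42 (0.00821).

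Postn (chr3:54361109-54391037, plus strand) encodes periostin, a collagen-binding protein that promotes cross-linking, and was not called higher in any comparison. Its level was 279, 307 and 318 FPKM in normal skin and 252, 179 and 340 FPKM at 6 weeks. At 20 weeks it was 187, 253 and 162 FPKM in fibrotic skin and 299, 240.3 and 157 FPKM in treated skin. All 3 of the 20-week fibrotic libraries lay below all normal libraries, but the log2 fold change, -0.61 ± 0.28 (SE, n = 3 a group), was not called (limma adjusted p = 0.112). After rescaling without the marker lists it was -0.92 (adjusted p = 0.0192), where the median of all genes was itself -0.31. In a fit of those 6 libraries alone the adjusted p was 0.0340. With median of ratios the Postn value was -0.56 (adjusted p = 0.135). Of 14 alternatives, 2 called it. Postn was the most abundant member in normal skin, and Sparc was in 6-week fibrotic skin by group mean.

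**Figure D3:**
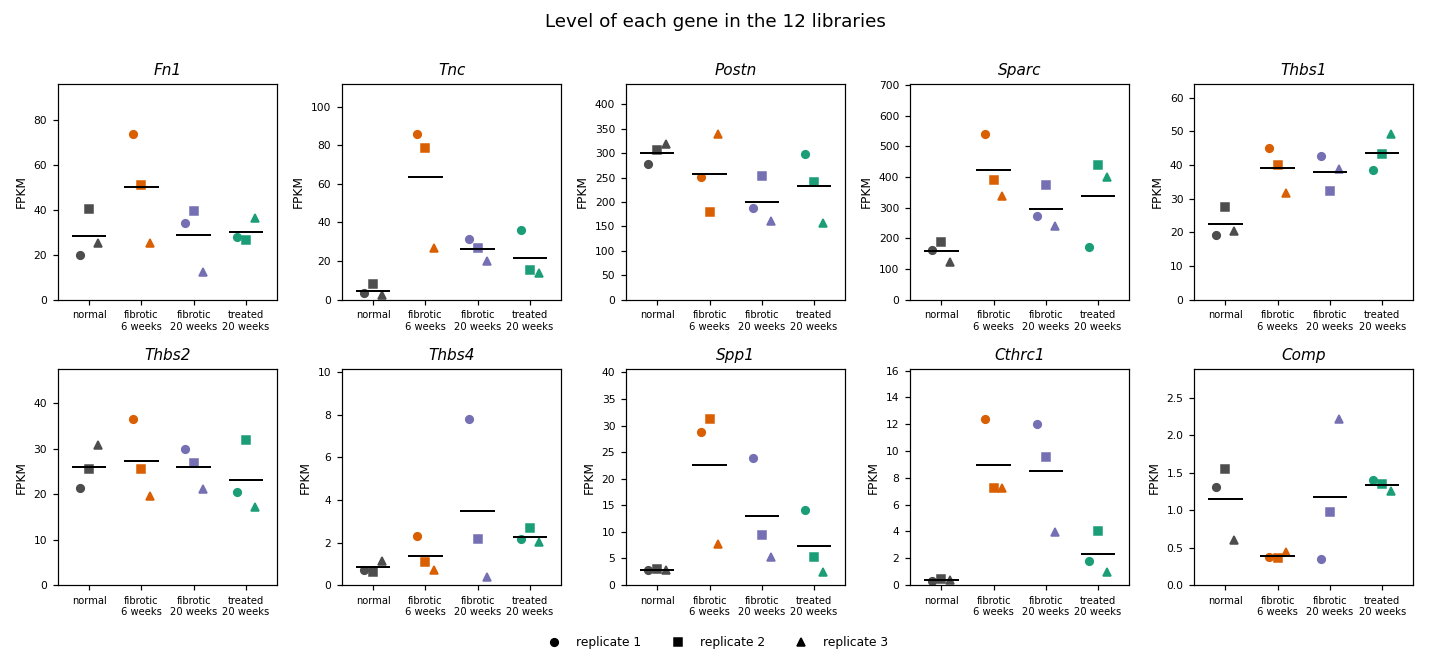
FPKM of the 10 genes in each of the 12 libraries on linear axes from 0, with circles, squares and triangles for replicates 1, 2 and 3 and a black line at each group mean. Tnc, Cthrc1 and Spp1 sit near the axis in normal skin and spread widely in 6-week fibrotic skin, while the 4 groups of Thbs2 overlap.

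The thrombospondins bind cells, collagen and growth factors, and Thbs1 is known as an activator of latent TGF-beta and as a ligand of CD36. Thbs1 (chr2:118111876-118127133, plus strand) stood at 19.2, 27.6 and 20.4 FPKM in normal skin and at 44.96, 40.1 and 31.8 FPKM at 6 weeks. It remained at 42.8, 32.3 and 38.9 FPKM in 20-week fibrotic skin and at 38.5, 43.2 and 49.3 FPKM in treated skin. The 9 fibrotic and treated libraries all lay above the 3 normal ones, and all 3 log2 fold changes against normal skin were called. They were 0.78, 0.75 and 0.94, each ± 0.17 (SE, n = 3 a group), with limma adjusted p of 0.00697, 0.00993 and 0.00758. After rescaling the 6-week value was 0.46 (adjusted p = 0.0708) and the 20-week value 0.44 (0.0836), and a fit of the 6 libraries alone gave 0.0631 for treated skin. Platelets carry much thrombospondin-1. Of 5 platelet markers 2 passed the filter, and the 5 summed to 7.90 to 17.1 FPKM in normal, 17.7 to 32.7 in 6-week, 4.91 to 12.6 in 20-week and 8.40 to 17.0 FPKM in treated skin. Pf4 made up most of this sum in every library, and 0 of the 2 tested were called at 6 weeks. Gp1ba, under 1 FPKM throughout, was lower at 6 weeks than in normal skin. The part of platelets in the Thbs1 values was not tested. An exon of Gm29233 overlaps Thbs1 on the opposite strand.

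Thbs2 (chr17:14665500-14694235, minus strand), an inhibitor of vessel growth, ran from 17.0 to 36.5 FPKM with no separation of the groups. It stood at 21.4, 25.5 and 30.7 FPKM in normal, 36.5, 25.6 and 19.5 FPKM in 6-week, 29.8, 26.9 and 21.1 FPKM in 20-week and 20.4, 31.9 and 17.0 FPKM in treated skin. Its log2 fold change at 6 weeks was 0.04 ± 0.27 (SE, n = 3 a group; limma adjusted p = 0.922), with a 95% interval from -0.55 to 0.63. Thbs4 (chr13:92751590-92794818, minus strand), known from tendon, muscle and nerve, was a low transcript of uneven level. It stood at 0.718, 0.629 and 1.13 FPKM in normal, 2.31, 1.101 and 0.710 FPKM in 6-week, 7.80, 2.19 and 0.396 FPKM in 20-week and 2.15, 2.67 and 2.01 FPKM in treated skin. The 3 treated libraries lay above the normal ones, yet the log2 fold change was 0.85 ± 0.53 (adjusted p = 0.268). At 20 weeks it was 0.91 ± 0.53 (adjusted p = 0.205), and 1.55 (0.0248) without fibrotic replicate 3.

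Comp (chr8:70373558-70382066, plus strand), the cartilage oligomeric matrix protein, is the fifth thrombospondin and binds collagen. It reached at most 2.21 FPKM. Comp stood at 1.31, 1.54 and 0.600 FPKM in normal, 0.374, 0.356 and 0.443 FPKM in 6-week, 0.347, 0.981 and 2.21 FPKM in 20-week and 1.40, 1.35 and 1.25 FPKM in treated skin. All 6-week libraries lay below all normal and all treated ones. The log2 fold change at 6 weeks was -0.60 ± 0.28 (SE, n = 3 a group; limma adjusted p = 0.108), and -0.74 (0.0472) after rescaling. The median of all genes after that rescaling was itself -0.34. With median of ratios the Comp value was -0.58 (adjusted p = 0.120). Tendon and cartilage markers, 6 of 13 of which passed the filter, summed to 52.7 to 61.4 FPKM in normal, 18.2 to 26.7 FPKM in 6-week, 26.7 to 27.1 FPKM in 20-week and 31.0 to 54.8 FPKM in treated skin. Sox9 was the largest part of this sum in every library, at 39.7, 30.4 and 27.7 FPKM in normal skin. In 20-week fibrotic skin it was at 17.2, 13.9 and 17.7 FPKM. Of the 6 markers, 1 was called higher and 3 lower at 6 weeks, and 0 and 3 at 20 weeks. At 20 weeks the sum of the tendon and cartilage markers was below every normal library, while mean Comp was 1.18 FPKM against 1.15 FPKM in normal skin. Their part in the Comp values was not tested.

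Within a group, the 10 genes shared their high and low libraries only in part. In the third library of the 6-week, 20-week fibrotic and treated groups, 8, 8 and 7 of the 10 genes had their lowest value of the group. In normal skin the lowest values split 5, 1 and 4 over replicates 1, 2 and 3. The highest values split 0, 7 and 3 in normal, 6, 3 and 1 in 20-week fibrotic and 4, 4 and 2 in treated skin. How many of all tested genes were lowest in the same libraries was not counted. The first 6-week library held the highest value of its group for 7 genes, and of all 12 libraries for 5. The sum of the 10 genes ran from 511 to 603 FPKM in normal, 797 to 1078 FPKM in 6-week, 506 to 775 FPKM in 20-week and 612 to 809 FPKM in treated skin.

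Ratios within a library, which a common scale factor does not alter, were chosen after the values were seen and carry no test. The ratio of Tnc to Fn1 was 0.0976 to 0.195 in normal skin, 1.07 to 1.54 at 6 weeks, 0.672 to 1.63 at 20 weeks and 0.374 to 1.29 in treated skin. The groups of fibrotic and treated libraries therefore did not overlap with normal skin in this ratio. Postn over Sparc was 1.62 to 2.59 in normal skin and 0.460 to 1.01 at 6 weeks, 0.671 to 0.684 at 20 weeks and 0.392 to 1.74 in treated skin. The upper end of the treated range was its first library, at 1.74, where Sparc was low, and the other treated libraries were at 0.548 and 0.392. Thbs1 over Thbs2 was 0.663 to 1.08 in normal skin and above that in every other library, from 1.20 to 2.89. Relative to Col1a1, a chain of type I collagen, Cthrc1 was at 0.0122 to 0.0232 in normal, 0.0718 to 0.0820 in 6-week, 0.0628 to 0.140 in 20-week and 0.00878 to 0.0352 in treated skin. The treated and fibrotic ranges of this ratio did not overlap. Sparc over Col1a1 was 5.14 to 7.17 in normal skin and 2.48 to 4.33 elsewhere, and Fn1 over Col1a1 was 0.805 to 1.47 in normal skin and 0.178 to 0.565 elsewhere.

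**Figure D4:**
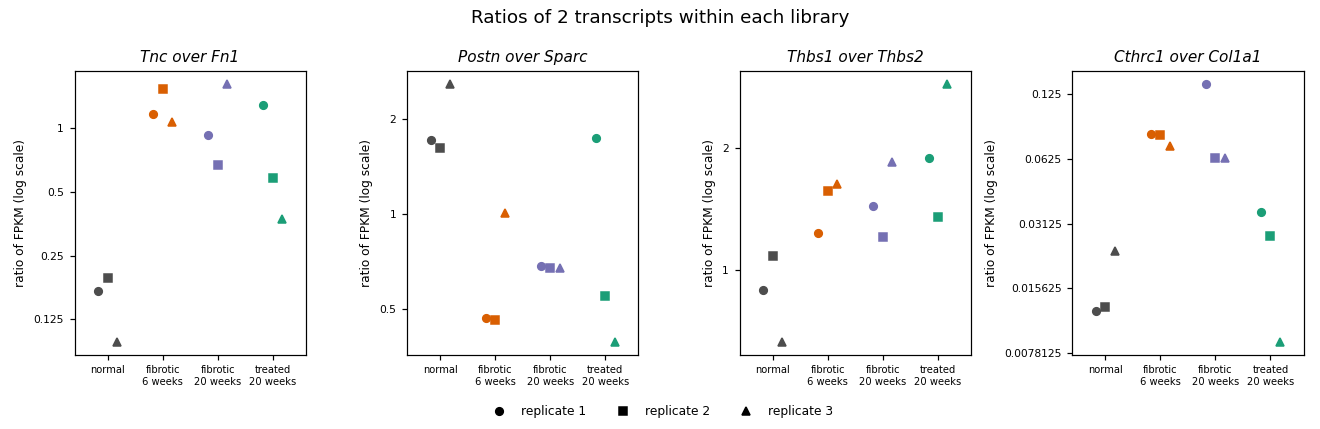
Ratios of FPKM within each of the 12 libraries on log axes, by group. Tnc over Fn1 and Thbs1 over Thbs2 were higher in all fibrotic and treated libraries than in normal skin, and Cthrc1 over Col1a1 was 0.00878 to 0.0352 in treated and at least 0.0628 in fibrotic skin.

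Other secreted matricellular genes moved both ways, as did the tested genes as a whole. Of 23 measured, 4 were called higher and 6 lower at 6 weeks, 4 and 8 at 20 weeks, 0 and 0 between 6 and 20 weeks (2 at an unadjusted p under 0.05), 2 and 1 in treated against fibrotic skin, and 2 and 2 in treated against normal skin. Rescaling turned the split of treated against fibrotic skin to 6 and 0, and that at 6 weeks to 3 and 8. As deposited, 17.6% of all tested genes were called higher and 21.7% lower at 6 weeks, and 15.3% and 18.2% at 20 weeks. The shares were 4.45% and 10.9% in treated against fibrotic skin, and 7.57% and 13.2% in treated against normal skin. The same shares stand beside the counts of every other list named in the text. At 6 weeks Wisp1, a CCN family protein, rose by 1.74 ± 0.19 on the log2 scale (SE, n = 3 a group; limma adjusted p = 0.000254). Wisp1 was at 0.151, 0.406 and 0.192 FPKM in normal skin, so it passed the filter only through the other groups. Tnxb, tenascin-X, a tenascin of normal dermis, fell by 1.77 ± 0.38 (adjusted p = 0.00556), and Efemp1, the elastic-fibre protein fibulin-3, fell by 1.61 ± 0.36 (0.00686). At 20 weeks the log2 fold change was -2.40 for Efemp1, -1.59 for Tnxb and 1.38 for Tnn, tenascin-W (adjusted p = 0.00154, 0.0107 and 0.0260). Normal skin held Tnn at 1.16, 0.612 and 0.683 FPKM, so Tnn too passed the filter only through the other groups. In treated against fibrotic skin the log2 fold change was 1.51 for Smoc1, 0.87 for Cyr61 and -0.87 for Ecm1 (adjusted p = 0.0464, 0.0213 and 0.0213), and Ecm1 was not called after rescaling (-0.58, 0.0546). In treated against normal skin it was -1.32 for Efemp1, 1.20 for Wisp2 and -1.15 for Tgfbi (adjusted p = 0.0294, 0.0373 and 0.00450). Of the tenascins, Tnc and Tnn were higher and Tnxb was lower than normal at 20 weeks under all 3 scalings.

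Of 20 receptors and binding partners of these proteins, 5 were called higher and 2 lower at 6 weeks, 5 and 1 at 20 weeks, 0 and 0 between 6 and 20 weeks (6 at an unadjusted p under 0.05), 0 and 0 in treated against fibrotic skin (3), and 3 and 2 in treated against normal skin. After rescaling the counts were 2 and 2 at 6 and at 20 weeks, and 3 and 0 in treated against fibrotic skin. As deposited, 2737 of all 13761 tested genes had an unadjusted p under 0.05 between 6 and 20 weeks. In treated against fibrotic skin 4775 did. Itga5, the alpha chain of the main fibronectin integrin, rose by 1.08, 0.88 and 0.997 in 6-week, 20-week and treated skin against normal (limma adjusted p = 0.00219, 0.00711 and 0.00825). Plaur, the urokinase receptor, rose by 2.14, 1.28 and 1.35 (adjusted p = 0.000908, 0.0115 and 0.0161). With 0.454, 1.10 and 0.290 FPKM in normal skin, Plaur passed the filter only through the other groups. Sdc4, the heparan sulphate coreceptor of fibronectin, fell by 1.44, 0.86 and 0.73 (adjusted p = 0.000106, 0.000782 and 0.00393). Cd36, the receptor of Thbs1 by which the given fibroblasts were defined, was looked at after its values were seen. It stood at 22.4, 85.9 and 131 FPKM in treated and 23.2, 33.6 and 67.3 FPKM in 20-week fibrotic skin, and was not called (0.74, limma adjusted p = 0.374). Normal skin held 73.7, 59.7 and 57.8 FPKM. Adipocyte markers summed to 1187, 3246 and 6117 FPKM in treated and 1343, 1949 and 2155 in 20-week fibrotic skin. Endothelial markers summed to 71.8, 191 and 251 FPKM in treated and 94.1, 90.3 and 134 in 20-week fibrotic skin. At 6 weeks the adipocyte sum was 2143 to 5365 FPKM, while Cd36 was 20.7 to 32.3 FPKM. The part of any cell type in the Cd36 values was not tested.

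The fibrillar collagens, 6 measured, counted 5 higher and 0 lower at 6 weeks, 2 and 0 at 20 weeks, 0 and 0 between 6 and 20 weeks (0 at an unadjusted p under 0.05) and in treated against fibrotic skin (1), and 1 and 0 in treated against normal skin. Ligands and targets of TGF-beta, which drives transcription of many matrix genes, numbered 12. They counted 5 higher and 1 lower at 6 weeks, 4 and 1 at 20 weeks, 0 and 0 between 6 and 20 weeks (1 at an unadjusted p under 0.05), 0 and 1 in treated against fibrotic skin (4 and 0 after rescaling), and 3 and 0 in treated against normal skin. Against normal skin, dermal fibroblast markers counted 1 and 0 at 6 weeks and 0 and 4 at 20 weeks (0 and 2, and 0 and 5, after rescaling), and 2 and 0 in treated against fibrotic skin.

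The tested genes closest in pattern were taken as those with the smallest root mean square difference in log2(FPKM + 1), each centred on its own mean, over the 12 libraries, among 9660 genes with a mean of at least 5 FPKM. Sparc lay nearest to Col5a1, at a difference of 0.15, then C1qtnf6 (0.17) and Fkbp10 (0.19), against its own SD of 0.64. Tnc lay nearest to Lilrb4 (0.50) and Gp49a (0.52), which are near-identical copies whose reads may have been shared, and to Ms4a7 (0.54), against an SD of 1.39. Spp1 lay nearest to Akr1b8 (0.37), Ms4a7 (0.39) and 1190003J15Rik (0.40), against an SD of 1.15. Cthrc1 lay nearest to Mgst2 (0.40), Col12a1 (0.47) and Nt5dc2 (0.50), against an SD of 1.24. Among the 10 genes themselves the smallest differences were between Sparc and Thbs1, at 0.43, and between Postn and Thbs2, at 0.44. The group means of Thbs1, Postn and Thbs2 span under 1 on the log2 scale. Between genes that vary so little, a small difference does not show a shared pattern. All 12 points share the same libraries and their mixtures, and the likeness is a description without a test.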

How the data were processed

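RNA of macrodissected mouse skin was made into stranded poly(A) libraries and sequenced in paired 101-cycle runs, per the labels' protocols. The authors deposited FPKM values for 23359 genes in 12 libraries. The submitters' processing notes name mm10, Cufflinks 2.2.1, TopHat2 2.0.13, Bowtie2 2.2.3, cutadapt 1.7.1, FastQC 0.11.2, SAMtools 1.0 and R 3.1.1, without roles; annotation and strand setting are not given in the sources used. FPKM keeps no read numbers, so the depth of each library is unknown and no counting interval is given; a gene's precision is read from its replicates.

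Values were analysed as log2(FPKM + 1). A gene had to reach 1 FPKM in 3 or more libraries to be tested, which left 13761 genes, and these went into limma 3.58.1 (R 4.3.3) in a single fit of 12 libraries with group means and an intensity trend, 2-sided, with Benjamini-Hochberg adjustment within each of 5 comparisons. The fit assumes alike spread in the 4 groups. With 3 libraries a side, the smallest p of an exact permutation test is 0.1, so none is reported. The fit was run on simulated data in which each gene had the same spread in the 4 groups. That run cannot check the fit where the spread differs between groups. Alternatives were a pseudocount of 0.1, no filter, a filter at a mean of 5 FPKM, 2 other scalings, fits of 6 libraries, a replicate block, no intensity trend and leaving out each library. The labels do not say that a replicate number marks a shared mouse or batch. Over all tested genes, the deviations of same-numbered normal and 6-week libraries correlated at 0.159, 0.227 and 0.108. Normal replicate 1 correlated at 0.191 with 6-week replicate 3, above the 0.159 with its own number. In no other pair of groups did all 3 same-numbered correlations exceed 0.1. Deviations within a group of 3 sum to 0, so these values are not independent and cannot settle whether libraries were paired. The reported fit treats all libraries as unpaired. The rescaling left out keratinocyte, hair and muscle markers, 792 short RNA rows and 22 genes listed at 0 in some library but at 10 FPKM or more elsewhere.

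The members, lists and tests were chosen with earlier results of these data known. All 10 members are named. Of the other matricellular and receptor lists, the up to 3 called genes with the largest absolute change and at least 1 FPKM in the higher group are named in each comparison, and the 3 nearest genes are named for members whose group means span at least 1 on the log2 scale. Gene positions are from GENCODE on GRCm38.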

Additional observations from a re-analysis of the deposited data

How the results depend on the processing

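Counts moved by over 1.5 times in several of the 8 fits that kept every library of the comparison. Fits of only the 6 libraries compared called 6 members at 20 weeks against normal skin (3 as reported), 0 in treated against fibrotic skin (1) and 0 in treated against normal skin (2). With no filter 0 members were called in treated against fibrotic skin. Over all genes, 20 against 6 weeks gave 33 calls with a filter at a mean of 5 FPKM and 478 with 6 libraries (5 as reported). Treated against fibrotic skin gave 3 with 6 libraries and 1365 with the replicate block (2108), and treated against normal skin gave 138 with 6 libraries (2855). The replicate block changed 1 member's call, Spp1 at 20 weeks (adjusted p = 0.0225). It called 5 members and 5007 genes at 6 weeks (5 and 5409 as reported), and changed no other member's call. Whether a shared number pairs the libraries is not known. Over all pairs of groups, 5 of 18 same-numbered pairs correlated over 0.1, 3 of them between normal and 6-week skin. Only 9 of 36 comparisons matched a library best with its own number. Directions turned, all for uncalled values, after rescaling for Thbs2 at 6 weeks (-0.28), at 20 weeks (-0.30) and in treated against fibrotic skin (0.09), and for Thbs4 there (0.14), as also with a pseudocount of 0.1 (0.18). Leaving out a library gave 0 to 1 members in treated against fibrotic and 1 to 3 in treated against normal skin. Over all genes it gave 3502 to 4574 calls at 6 weeks, 3028 to 3545 at 20 weeks, 4 to 109 between them (109 without 6-week replicate 3), 3 to 5216 in treated against fibrotic skin (3 without fibrotic replicate 3, 5216 without treated replicate 1) and 904 to 3098 in treated against normal skin. Uncalled fold changes that crossed 0 were, at 6 weeks, Thbs2 (-0.19 to 0.24); at 20 weeks, Fn1 (-0.39 to 0.42), Thbs2 (-0.12 to 0.14) and Comp (-0.37 to 0.26); between them, Thbs1 (-0.17 to 0.0784), Thbs2 (-0.24 to 0.19), Thbs4 (-0.11 to 1.21) and Cthrc1 (-0.42 to 0.28); in treated against fibrotic skin, Fn1 (-0.28 to 0.53), Postn (-0.0193 to 0.44), Sparc (-0.15 to 0.52), Thbs4 (-0.70 to 0.63) and Comp (-0.12 to 0.51); and in treated against normal skin, Fn1 (-0.0865 to 0.41) and Comp (-0.0575 to 0.28). The cause was not tested. Depth is unknown, so the precision of the low members Cthrc1, Thbs4 and Comp could not be set beside their read numbers.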
